A study of Homo sapiens with 6 samples.

Results

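ARNT2 and 8 other genes of the bHLH-PAS family were followed in A375 melanoma cells with and without RIPK4, a serine/threonine kinase. The members were the transcription factors that pair with ARNT or ARNT2 or belong to the same family (HIF1A, EPAS1, AHR, NPAS2, CLOCK and SIM2), both partners themselves, and AHRR, the repressor of AHR. They were taken by gene symbol from a table of 20851 genes. Of these 9 genes, 8 had a row, 7 passed a filter on low counts, and AHRR had no row of its own and was not analysed here. Beyond their family, they were selected on the raw counts of these same 6 libraries and the knockout-to-control differences in them, so these differences are a description and carry no p-value.

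bHLH-PAS proteins bind DNA as pairs, through a basic helix-loop-helix region and PAS domains. ARNT is the partner that most cells use: it joins AHR after a ligand binds, and joins the HIF alpha subunits when oxygen falls. ARNT2 is its close relative, best known from neurons and kidney, and is the usual partner of SIM proteins in the hypothalamus. CLOCK and NPAS2 pair mainly with BMAL1 and drive the daily clock.

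The data were bulk RNA-seq of A375, an established human melanoma cell line. Cells of the A375 RIPK4.KO subline (n = 3) had received Cas9 and a lentiviral guide against RIPK4, and control cells (A375 neg, n = 3, labelled as a GFP control) a guide with no human target; they are called the knockout and the controls. The knockout is 1 clone (clone #1, by the study's text), so a property of the clone and an effect of RIPK4 loss cannot be told apart. Libraries were made from poly(A) RNA with strand marking and held 21882863 to 26694140 counted reads. RIPK4 itself had 319, 368 and 404 counts in replicates 1 to 3 of the controls and 42, 51 and 61 in the knockout. The series' design text calls the replicates biological, and p-values measure the spread between these libraries.

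Of 7 melanocytic markers, 4 had a row, and MLANA, TYR and DCT had none. SOX10 and MITF, which mark this lineage, were expressed in every library (7448 to 10056 and 288 to 535 counts). PMEL had at most 22 counts and TYRP1 at most 8. MITF was lower in every knockout library (500, 440 and 535 counts in the controls and 326, 288 and 376 in the knockout), as was SOX10. Among lists for other cell types, those of keratinocytes, endothelium and neurons were lower in the knockout, and that of leukocytes overlapped. Keratinocyte markers (2 of 4 with a row, nearly all from KRT14) summed to 469 to 618 counts in the controls and 128 to 161 in the knockout, and endothelial markers (3 of 3) to 32 to 38 and 6 to 11. Neuron markers (2 of 4) summed to 83 to 86 and 31 to 56, and leukocyte markers (2 of 4, nearly all CD68) to 1033 to 1254 and 1061 to 1207, with PTPRC at 0 to 3. Replicate 2 of A375 RIPK4.KO stood apart on the second principal component (14.9% of the variance). The part of these differences in the results was not tested.

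ARNT and ARNT2 are similar enough that their reads could in principle be mistaken for each other, and the sequences show how far they can be. Their coding sequences were identical at 72.63% of 2068 aligned bases. Over the whole principal transcript of each gene, untranslated parts included, the longest shared run was 17 bases, much shorter than a 150-base read. The most similar 90-base stretch is shown for that reason. It lies in exon 7 of ARNT (chr1:150836331-150836420, minus strand) and exon 5 of ARNT2 (chr15:80475083-80475172, plus strand), both GRCh38, and capitals mark the 12 bases that differ.
ARNT: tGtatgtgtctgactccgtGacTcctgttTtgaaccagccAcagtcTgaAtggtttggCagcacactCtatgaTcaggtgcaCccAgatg
ARNT2: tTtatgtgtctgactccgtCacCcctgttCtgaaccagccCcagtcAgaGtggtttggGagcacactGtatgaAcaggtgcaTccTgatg
Even here 78 of the 90 bases are shared and the differences are spread along the stretch. By the same measures, HIF1A and EPAS1 were 68.4% identical (longest shared run 13 bases) and CLOCK and NPAS2 69.96% (14 bases).

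ARNT2 was the member with the largest difference among the 7 that passed the filter. The gene occupies chr15:80404350-80597937 on the plus strand. It had 3610, 4219 and 3852 counts in the controls and 598, 650 and 645 in the knockout. Every control library was far above every knockout library. After normalization for library size (TMM, the scaling edgeR uses), the means were 3716 ± 149 and 662 ± 14.2 normalized counts (SD, n = 3 each). This is a log2 fold change of -2.49 (SE 0.06), 5.61-fold lower in the knockout, and the value lay between -2.51 and -2.45 when each library in turn was left out. In bulk RNA, fewer cells with a transcript and less of it per cell cannot be told apart.

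ARNT (chr1:150809705-150876768, minus strand), the partner shared by AHR and the HIF alpha subunits, overlapped between the groups. It had 758, 897 and 833 counts in the controls and 644, 675 and 803 in the knockout. The means were 791 ± 34.2 and 741 ± 63.5 normalized counts, and the log2 fold change was -0.09 (SE 0.08).

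**Figure D1:**
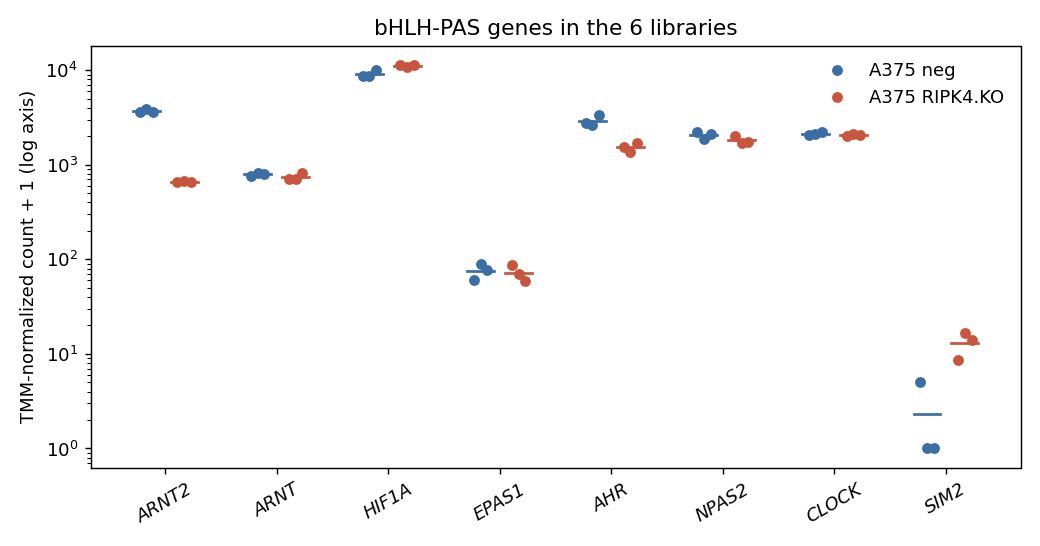
TMM-normalized counts plus 1 (log axis) of the 8 bHLH-PAS genes with a row; each point is 1 library and each bar the mean of 3. ARNT2 and AHR are lower in all 3 A375 RIPK4.KO libraries, HIF1A and SIM2 are higher, and the points of ARNT, EPAS1, NPAS2 and CLOCK overlap between the groups.

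The balance between ARNT and ARNT2 therefore differed. Of the counts of both genes together, ARNT took 17.4%, 17.5% and 17.8% in the controls and 51.9%, 50.9% and 55.5% in the knockout. The exact (Clopper-Pearson) 95% intervals ran from 16.2% to 18.9% over the control libraries and from 48.2% to 58.0% over the knockout libraries. They cover counting error only and rest on 4368 to 5116 counts per control library and 1242 to 1448 per knockout library. The group means were 17.6% ± 0.214 and 52.8% ± 2.39 (SD, n = 3 each), so the groups were much farther apart than their replicates.

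Because the 2 genes differ in length (6.516 kb of exons for ARNT, 7.741 kb for ARNT2), the balance was also taken per kilobase. On that scale ARNT made up 20.2% ± 0.238 of the pair in the controls and 57.0% ± 2.34 in the knockout. ARNT2 was 3.95 ± 0.0584 times ARNT in the controls and 0.756 ± 0.0708 times ARNT in the knockout, so the order of the partners turned over. Their summed level was 601 ± 24.3 normalized counts per kb in the controls and 199 ± 8.99 in the knockout, of which ARNT2 gave 480 and 85.5 and ARNT 121 and 114.

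**Figure D2:**
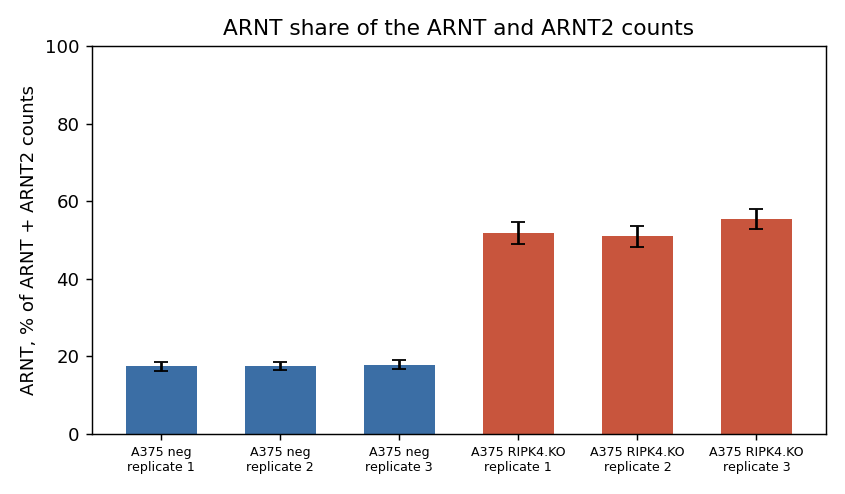
Share of ARNT in the counts of ARNT plus ARNT2 (%, axis from 0 to 100) in each library, with exact 95% binomial intervals. The 3 A375 neg libraries lie between 17.4% and 17.8%, the 3 A375 RIPK4.KO libraries between 50.9% and 55.5%.

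AHR, the ligand-activated receptor for dioxins and tryptophan metabolites, was the other member that lay lower with no overlap of the groups in normalized counts. In GENCODE v29 the gene spans chr7:16916359-17346152 on the plus strand, which includes transcripts that begin far upstream of the RefSeq start used for its promoter. It had 2786, 2836 and 3583 counts in the controls and 1405, 1315 and 1690 in the knockout. All knockout libraries were below all control libraries, although replicate 3 of A375 neg was higher than its group. The means were 2931 ± 412 and 1541 ± 171 normalized counts, a log2 fold change of -0.93 (SE 0.11), 1.90-fold lower. It was -0.81 to -1.01 with each library left out in turn.

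AHRR, which competes with AHR for ARNT, has no value here. The lowest total of any gene in the table was 4 counts. The readthrough transcript PDCD6-AHRR, whose counts cannot be assigned to AHRR, had 2, 0 and 1 counts in the controls and 1, 0 and 0 in the knockout.

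HIF1A, the oxygen-regulated alpha subunit found in most cells, was the most abundant member per kilobase in both groups. It lies at chr14:61695513-61748259 on the plus strand. It had 8647, 9455 and 10623 counts in the controls and 10306, 10374 and 11192 in the knockout. The raw counts overlapped, but the normalized counts did not: 9141 ± 804 in the controls and 11147 ± 279 in the knockout. The log2 fold change of 0.29 (SE 0.07) is 1.22-fold higher. The HIF-1 alpha protein is controlled mainly by its breakdown, which RNA counts do not measure. The antisense genes HIF1A-AS1 and HIF1A-AS2 had at most 5 counts in any library.

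EPAS1 (HIF-2 alpha; chr2:46293667-46386703, plus strand) was sparse. It had 59, 96 and 81 counts in the controls and 79, 66 and 57 in the knockout, with a log2 fold change of -0.08 (SE 0.24). The groups overlapped, and with so few counts the value ran from -0.24 to 0.06 when a library was left out.

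NPAS2 and CLOCK, the paired relatives that work with BMAL1, overlapped between the groups in normalized counts, though not in the raw counts given here. NPAS2 (chr2:100820152-100996829, plus strand) had 2227, 2052 and 2216 counts in the controls and 1838, 1618 and 1720 in the knockout, a log2 fold change of -0.19 (SE 0.09). CLOCK (chr4:55427903-55547138, minus strand) had 2049, 2320 and 2338 counts in the controls and 1834, 2048 and 2044 in the knockout, a log2 fold change of -0.04 (SE 0.06).

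SIM2 (chr21:36699133-36749917, plus strand), a repressor-type partner of ARNT and ARNT2, was near the limit of detection. It had 4, 0 and 0 counts in the controls and 7, 15 and 13 in the knockout and did not pass the filter. Every knockout library was above every control library, but a count of 0 still allows up to 3 counts, so no fold is given. Of the 6 tested protein-coding genes next to it (3 on each side), 0 were called (at least 1.5-fold and an adjusted p under 0.05) by edgeR and 0 by DESeq2. By edgeR 9.04% of all genes were called, so a count of 0 among 6 says little. CHAF1B, a histone chaperone subunit, was the 1 with an unadjusted p under 0.05 in edgeR, a limit for which no share of all genes was taken. It had a log2 fold change of -0.45 (SE 0.08), under the fold limit. Its Benjamini-Hochberg adjusted p in edgeR's quasi-likelihood test was 0.0051.

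As a description and not as a test of the members, 2 of the 7 (ARNT2 and AHR) lay past the limits that define a call over all genes, and both were lower. Of all 14443 genes tested, 9.04% were called, 4.39% higher and 4.65% lower. Control and knockout libraries were fully separated, in normalized counts, for 3 of the 7 (ARNT2, AHR and HIF1A), against 36.5% of all genes. As the members were proposed from this contrast, nothing is read from these shares.

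Per kilobase of all annotated exons of a gene, the members kept a wide range. In A375 neg, HIF1A (1775 ± 156 normalized counts per kb) stood above ARNT2 (480 ± 19.3), AHR (363 ± 50.9), CLOCK (181 ± 7.12), NPAS2 (166 ± 13.6), ARNT (121 ± 5.26) and EPAS1 (10.2 ± 2.03), with SIM2 last. CLOCK and NPAS2 overlapped, and all other neighbours in this order were separated. The place of NPAS2 in either group depends on the length used. Its annotated exons together cover 12.491 kb, but its principal transcript has only 4007 bases. An order by principal transcript was not taken. In A375 RIPK4.KO, HIF1A (2164 ± 54.2) was followed by AHR (191 ± 21.1), CLOCK (176 ± 5.66), NPAS2 (145 ± 13.7), ARNT (114 ± 9.74), ARNT2 (85.5 ± 1.84) and EPAS1 (9.72 ± 1.97). AHR and CLOCK overlapped there. ARNT2 thus went from the second to the sixth place.

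The alpha subunits and receptors also changed relative to their partners. HIF1A per kb was 2.96 ± 0.311 times the sum of ARNT and ARNT2 in the controls and 10.9 ± 0.438 times that sum in the knockout. Against ARNT alone, HIF1A was 14.6 ± 1.41 times as high in the controls and 19.1 ± 1.34 times in the knockout, so the shift against the sum lay mostly in ARNT2. AHR per kb was 0.605 ± 0.0981 and 0.956 ± 0.0774 times the same sum, a smaller shift, as AHR was itself lower in the knockout. AHR against ARNT alone was 2.99 ± 0.460 times as high in the controls and 1.68 ± 0.0959 times in the knockout. These are ratios of RNA levels and say nothing of how many protein pairs form.

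Genes around ARNT2 were examined because neighbours can share a change. The 3 tested protein-coding genes before it were BCL2A1, ZFAND6 and FAH, and none was called (log2 fold changes of -0.19, 0.03 and -0.03). The first 2 after it, on the same strand, were both lower. ABHD17C, a depalmitoylating enzyme whose gene starts 81.7 kb beyond the end of ARNT2, had 2133, 2121 and 2638 counts in the controls and 825, 921 and 1061 in the knockout. CEMIP, a hyaluronan-degrading protein whose gene starts 181 kb beyond, had 6118, 6719 and 7102 counts in the controls and 1249, 1256 and 1371 in the knockout. For both, every knockout library was far below every control library.

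The log2 fold change of ABHD17C was -1.16 (SE 0.10, adjusted p = 9.05e-05) and that of CEMIP was -2.23 (SE 0.07, adjusted p = 1.18e-07), both by edgeR's quasi-likelihood test (Benjamini-Hochberg adjusted). MESD, the next gene and a chaperone of LRP receptors, was not called (0.08, SE 0.06), although it overlaps the end of CEMIP on the opposite strand. ARNT2, ABHD17C and CEMIP therefore lay side by side with the same direction, between FAH and MESD. On chromosome 15 as a whole, 28 of 386 tested protein-coding genes were called, and their median log2 fold change was -0.01. Of all genes tested, protein-coding or not, 9.04% were called, and no share of protein-coding genes alone was taken. Within 3 Mb, IL16 (-3.27), CPEB1 (-1.79) and AP3B2 (-3.72) were also called lower, and CTSH (1.66) and MEX3B (0.77) higher.

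**Figure D3:**
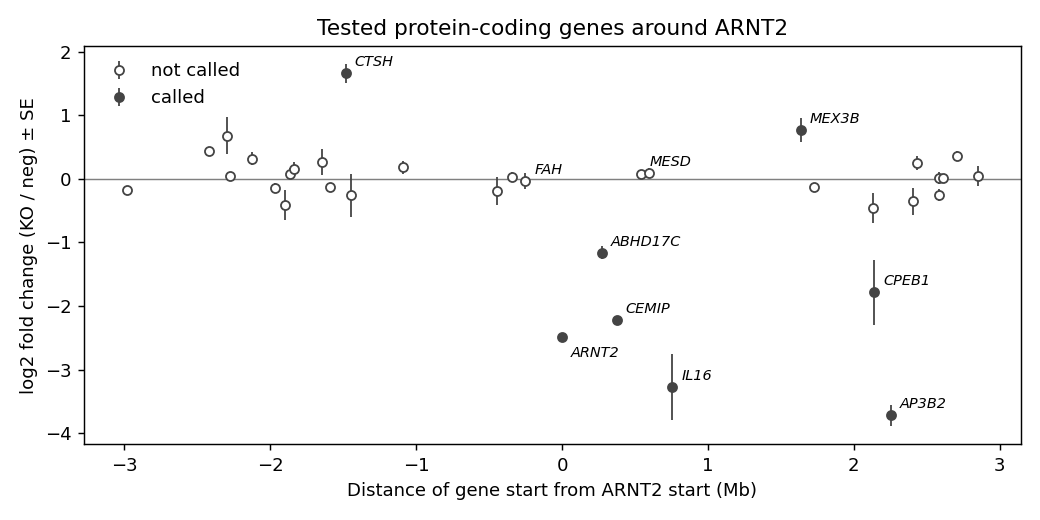
Log2 fold change with SE (A375 RIPK4.KO over A375 neg) of tested protein-coding genes against the distance of their start from the start of ARNT2 (Mb); filled points are called. ARNT2, ABHD17C and CEMIP are adjacent and low (-2.49, -1.16 and -2.23), with FAH (-0.03) and MESD (0.08) on either side near 0.

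The AHR pathway was described next, from lists of textbook genes. These and the lists that follow were chosen with earlier results of these data known. Their counts, set beside the shares of all genes, are therefore a description and not a test of enrichment. At an unadjusted p under 0.05 no share of all genes was taken. Of 10 AHR target genes, 7 had a row and 6 passed the filter. By edgeR, and by DESeq2 as well, 4 of those 6 were called lower and 0 higher, against 4.65% and 4.39% of all genes by edgeR. At an adjusted p under 0.05 with no fold limit, edgeR gave 5 lower and 0 higher, against 8.24% and 8.4%. At an unadjusted p under 0.05 it gave 5 lower and 1 higher. The median log2 fold change of the 6 was -0.72, against -0.00 over all genes. CYP1A1, the classical AHR-induced monooxygenase, had 151, 160 and 124 counts in the controls and 43, 52 and 48 in the knockout. CYP1B1, the related enzyme found outside the liver, had 115, 114 and 88 and then 45, 34 and 39 counts. Neither gene had overlapping groups.

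TIPARP, an ADP-ribosyltransferase that restrains AHR, had 3342, 3599 and 3515 counts in the controls and 1790, 2097 and 2256 in the knockout. NQO1, a quinone reductase that also answers to NRF2, had 9288, 9706 and 9400 counts in the controls and 4304, 5435 and 5105 in the knockout. Here too all knockout libraries were below all controls. By edgeR's quasi-likelihood test (Benjamini-Hochberg adjusted), the log2 fold changes were -1.47 for CYP1A1 (SE 0.19, adjusted p = 0.00082), -1.29 for CYP1B1 (SE 0.23, adjusted p = 0.0043), -0.63 for TIPARP (SE 0.07, adjusted p = 0.00028) and -0.80 for NQO1 (SE 0.08, adjusted p = 0.00013). The call of TIPARP was lost without replicate 1 of A375 RIPK4.KO, where its log2 fold change was -0.57, and the other 3 were called in every alternative. SLC7A5, an amino acid transporter, passed the test but not the fold limit (-0.29, SE 0.06, adjusted p = 0.013 by edgeR). SERPINB2 was at 0.66 (SE 0.26), with an adjusted p of 0.13 by edgeR.

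**Figure D4:**
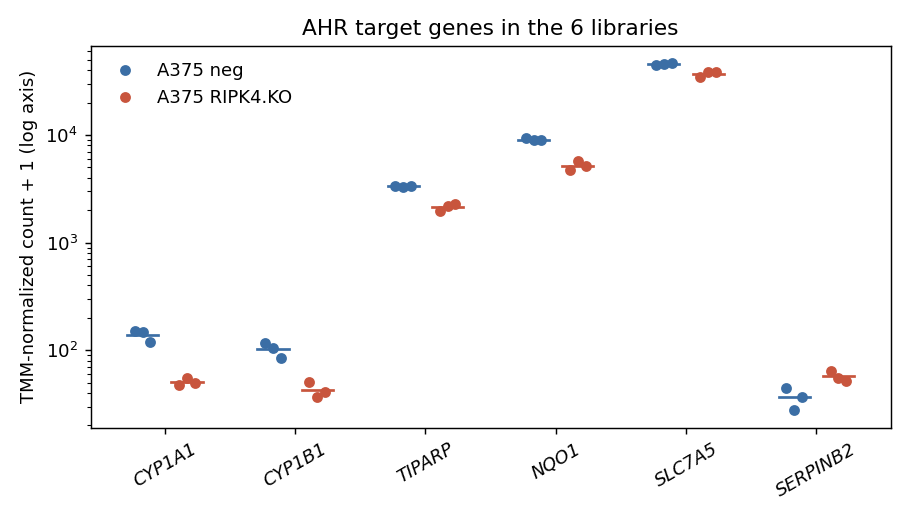
TMM-normalized counts plus 1 (log axis) of the 6 tested AHR target genes; each point is 1 library and each bar the mean of 3. CYP1A1, CYP1B1, TIPARP, NQO1 and SLC7A5 are lower in all 3 A375 RIPK4.KO libraries and SERPINB2 is higher.

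The proximal promoters of AHR and of CYP1A1 and TIPARP are shown because AHR with ARNT binds the core GCGTG. RefSeq sequences of GRCh38.p14 covered 7 of the 9 members, all but ARNT2 and SIM2, and the 250 bases before each start site were searched on both strands. GCGTG occurred in 31.91% of 27305 promoters, so a match by itself is common. Among the AHR targets, 5 of the 8 with a promoter held it: CYP1A1 once, 57 bases before the start, and TIPARP at 208 and 142 bases before it. NQO1 had none in this window, and CYP1B1 had no entry. In the first sequence below capitals mark CACGTG, the E-box that CLOCK and NPAS2 bind with BMAL1, which holds the HIF core ACGTG on both strands. In the other 2 they mark GCGTG or its reverse complement CACGC.
AHR, chr7:17298402-17298651, plus strand: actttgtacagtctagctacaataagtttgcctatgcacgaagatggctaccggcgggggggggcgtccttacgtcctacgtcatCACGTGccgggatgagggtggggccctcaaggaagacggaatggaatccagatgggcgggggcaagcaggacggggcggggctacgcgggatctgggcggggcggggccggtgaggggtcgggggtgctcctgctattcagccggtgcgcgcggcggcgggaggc
CYP1A1, chr15:74725529-74725778, minus strand: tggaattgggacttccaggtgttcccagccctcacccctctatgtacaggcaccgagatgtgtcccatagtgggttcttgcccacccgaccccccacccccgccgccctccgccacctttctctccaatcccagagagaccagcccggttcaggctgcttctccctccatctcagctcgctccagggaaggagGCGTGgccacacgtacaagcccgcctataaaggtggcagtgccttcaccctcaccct
TIPARP, chr3:156674340-156674589, plus strand: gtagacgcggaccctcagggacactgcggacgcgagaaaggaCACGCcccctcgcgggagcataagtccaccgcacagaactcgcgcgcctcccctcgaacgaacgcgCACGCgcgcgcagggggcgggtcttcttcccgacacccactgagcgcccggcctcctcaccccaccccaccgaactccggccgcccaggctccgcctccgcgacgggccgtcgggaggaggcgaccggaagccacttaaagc
AHR itself held no GCGTG in this window and 1 E-box, a motif found in 6.49% of all promoters. ACGTG was found in 18.68%. ABHD17C and CEMIP, the neighbours of ARNT2, each held 1 GCGTG. A match is a string of letters, not evidence that a factor was bound.

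The chaperones that hold AHR in the cytoplasm held 0 called genes of 4, by edgeR and by DESeq2. By edgeR 9.04% of all genes were called, so a count of 0 among 4 says little. At an adjusted p under 0.05 with no fold limit, edgeR gave 2 higher and 0 lower, against 8.4% and 8.24% of all genes. At an unadjusted p under 0.05, for which no share of all genes was taken, it gave 2 higher and 1 lower. PTGES3 (p23) and HSP90AA1 passed the test without reaching 1.5-fold, at log2 fold changes of 0.52 (SE 0.06, adjusted p = 0.00028) and 0.39 (SE 0.06, adjusted p = 0.0024) by edgeR's quasi-likelihood test (Benjamini-Hochberg adjusted). Their normalized counts were higher in every A375 RIPK4.KO library. HSP90AB1, the constitutive HSP90 isoform, was at -0.14 (SE 0.06) and did not pass.

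Oxygen sensing is the machinery that marks HIF alpha subunits for breakdown. Of 9 genes listed, 7 were tested, and 0 were called by edgeR's quasi-likelihood test and 0 by DESeq2. With 9.04% of all genes called by edgeR, a count of 0 among 7 says little. At an unadjusted p under 0.05, for which no share of all genes was taken, edgeR gave 1, which was EGLN1. The log2 fold changes ran from -0.26 to 0.14, with a median of 0.05. The 3 most abundant were EGLN1, the main HIF prolyl hydroxylase (0.14, SE 0.06), the elongin subunit ELOC (0.05, SE 0.08) and HIF1AN, the asparagine hydroxylase (-0.14, SE 0.07). Without the fold limit the count was 0 as well, against 16.6% of all genes.

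Genes that HIF induces under low oxygen were called in both directions. Of 28 listed, 26 were tested: 3 were called higher and 6 lower, against 4.39% and 4.65% of all genes. A negative log2 fold change was found for 22 and a positive one for 4, and the median was -0.30, against -0.00 over all genes. Without the fold limit 3 were higher and 13 lower, against 8.4% and 8.24% of all genes. DDIT4, an mTORC1 inhibitor also induced by other stresses, had 3468, 3642 and 3455 counts in the controls and 1098, 1179 and 1107 in the knockout. Every knockout library was far below every control library, and DDIT4 was the lowest of the 26 by log2 fold change.

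By edgeR's quasi-likelihood test (Benjamini-Hochberg adjusted), DDIT4 had a log2 fold change of -1.51 (SE 0.06, adjusted p = 1.05e-06). The other called genes on the lower side were CA9 (-0.79), a carbonic anhydrase used as a hypoxia marker, NDRG1 (-0.75), AK4 (-0.66), P4HA2 (-0.63), a collagen prolyl hydroxylase, and STC2 (-0.59). ADM, which encodes the vasodilator adrenomedullin, was higher (1.21, SE 0.11), as was CA12 (3.03, SE 0.42), another carbonic anhydrase with only 4 to 6 counts per control library and 31 to 59 per knockout library. STC2 lay at the fold limit and lost its call in 7 of the alternatives. AK4 lost it without replicate 2 and P4HA2 without replicate 3 of A375 RIPK4.KO.

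The most abundant HIF targets that were not called were the glycolytic enzyme PGK1 (-0.28, SE 0.08), the glucose transporter SLC2A1 (-0.26, SE 0.06) and the mitophagy receptor BNIP3 (-0.19, SE 0.08). PGK1 and SLC2A1 passed the test but not the fold limit (adjusted p = 0.037 and 0.023 by edgeR). BNIP3 did not pass the test. VEGFA, named after its values were seen, was at -0.40 (SE 0.06, adjusted p = 0.0017 by edgeR), under the fold limit. LDHA had only 5 to 13 counts in its own row and the table lists a further copy of the gene with counts of its own, so its level is uncertain. It did not pass the filter.

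**Figure D5:**
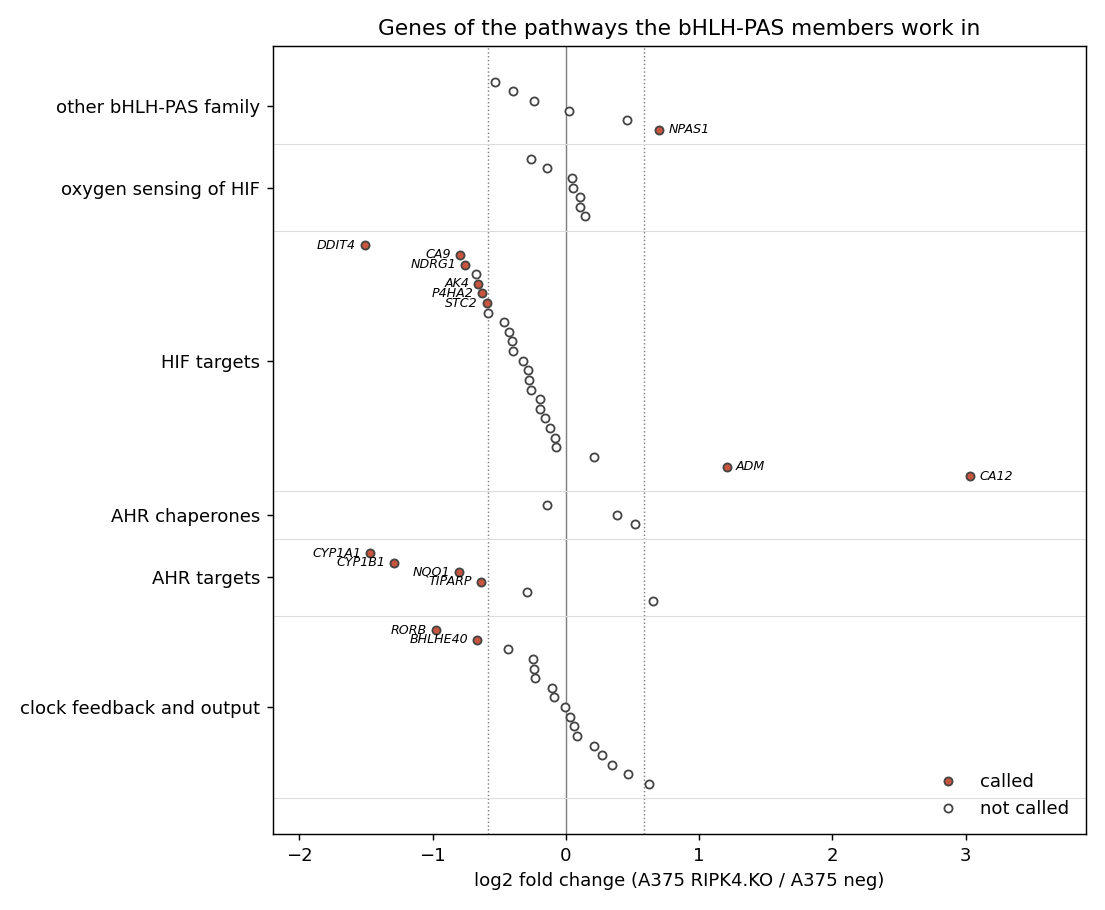
Log2 fold change (A375 RIPK4.KO over A375 neg) of tested genes of 6 lists, 1 point a gene; filled points are called and dotted lines mark 1.5-fold. Of the AHR targets 4 of 6 are called lower, the HIF targets hold 6 called lower and, among those plotted, ADM and CA12 called higher, and no gene of oxygen sensing or of the AHR chaperones is called.

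Of 21 clock genes listed, 18 were tested. By edgeR and by DESeq2, 2 of the 18 were called lower and 0 higher, against 4.65% and 4.39% of all genes by edgeR. At an adjusted p under 0.05 with no fold limit, edgeR gave 3 lower and 0 higher, against 8.24% and 8.4%. At an unadjusted p under 0.05, for which no share of all genes was taken, it gave 3 lower and 0 higher. The median log2 fold change was -0.05, against -0.00 over all genes. RORB, a nuclear receptor of the clock's stabilizing loop, had 150, 165 and 148 counts in the controls and 55, 77 and 83 in the knockout, a log2 fold change of -0.97 (SE 0.19, adjusted p = 0.0068 by edgeR). BHLHE40 (DEC1), a clock repressor that is also induced by HIF, was at -0.67 (SE 0.18, adjusted p = 0.031 by edgeR) and lost its call without replicate 2 or 3 of A375 neg or replicate 1 of A375 RIPK4.KO. Among the most abundant genes not called were CSNK1D (-0.09), a kinase that acts on PER proteins, and NR1D2 (0.06), a repressor of BMAL1.

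The rest of the bHLH-PAS family held 10 genes, of which 7 had a row and 6 were tested. By edgeR, 1 of the 6 was called, in the higher direction, against 4.39% of all genes. It was NPAS1, a mostly neuronal repressor, which had 124, 128 and 114 counts in the controls and 155, 188 and 201 in the knockout, a log2 fold change of 0.70 (SE 0.15, adjusted p = 0.013 by edgeR). That call was lost without replicate 3 of A375 neg or replicate 3 of A375 RIPK4.KO. BMAL2, listed as ARNTL2, had 1123, 1132 and 1336 counts in the controls and 1546, 1360 and 1590 in the knockout. It passed the test at 0.46 (SE 0.09, adjusted p = 0.0093 by edgeR). BMAL1, listed as ARNTL and the main partner of CLOCK and NPAS2, was named after its values were seen and passed in the other direction, with 270, 269 and 310 counts and then 189, 188 and 155, at -0.54 (SE 0.15, adjusted p = 0.038 by edgeR). Neither reached 1.5-fold. The coactivators NCOA3 (-0.40, SE 0.13) and NCOA1 (0.02, SE 0.09) did not pass.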

How the data were processed

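Poly(A) RNA of 6 A375 cultures was sequenced as paired 150-base reads. According to the submitters' processing notes, the authors used cutadapt, FastQC, HISAT2, HTSeq and DESeq2 on GRCh38.p13; versions and the strand setting of the counting are not given in the sources used here. The raw counts per gene were deposited as whole numbers without normalization and were the only values used. The same deposited table holds a normalized signal scaled by the authors, which was not used. It also holds the authors' own comparison of the groups (fold change as a ratio, its log2 value, a test score, its standard error and a p-value), and none of these was used. The 6 count columns were matched to samples by their titles. Totals ran from 21882863 to 26694140 counts, so 3 counts, the upper limit that a count of 0 allows, correspond to 0.112 to 0.137 CPM.

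The groups were tested by the quasi-likelihood method of edgeR 4.0.16 in R 4.3.3, after TMM scaling and the filterByExpr filter, and p-values were adjusted by Benjamini-Hochberg over the 14443 genes that passed. Calls needed an adjusted p under 0.05 and at least 1.5-fold. Normalized counts are raw counts divided by the TMM-scaled library size relative to the mean. SE is the log2 fold change divided by the root of the F statistic. Alternatives were DESeq2 1.42.0, its size factors, other filters, a block, a length correction and each library left out. In simulated libraries with 200 changed genes among 14443, at least 90% of the changed genes were recovered at each fold size tried. Of the unchanged genes, 0.007% were called. The fold sizes tried are not listed here, so the 90% is not given as a recovery rate for genes near the 1.5-fold limit. Exon lengths, positions and coding sequences came from GENCODE v29 on GRCh38, where 95.46% of 16285 gene positions overlapped those of the table. Intervals used scipy 1.17.1.

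The members and gene lists were chosen with earlier results of these data known. Named were every member, all called genes of each pathway list with its 3 most abundant genes not called, the 3 tested protein-coding genes on each side of ARNT2 and SIM2, and the 5 most like ARNT2 across libraries, with RIPK4. Some genes that this rule covers are not reported here or plotted, but stay in the counts of their lists. Genes outside this rule (BMAL1, VEGFA, NFIL3, and IL16, CPEB1, AP3B2, CTSH and MEX3B near ARNT2) were named after their values were seen.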

Additional observations from a re-analysis of the deposited data

How the results depend on the processing

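The direction of ARNT2, AHR and HIF1A was kept in every alternative tried, and among 29 single genes no called gene changed sign (332 of 347 values kept their side of the limits and 15 lost their call). FAH, ZFAND6 and TTC3, none of them called and all near 0, changed sign when single libraries were left out (FAH from -0.03 to 0.06, ZFAND6 from 0.03 to -0.02, TTC3 from -0.01 to 0.05), and TTC3 also with the length correction (0.04). The log2 fold change of AHR was between -1.01 and -0.81 over the libraries left out, and that of NPAS2 between -0.27 and -0.14. EPAS1 ran from -0.24 to 0.06, so no direction can be given for it.

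Dropping the fold limit raised the counts of called genes the most, from 1306 to 2403 over all genes, from 9 to 16 for the HIF targets, from 1 to 3 for the other bHLH-PAS genes and from 0 to 2 for the AHR chaperones. With each library removed in turn there were 1059 to 1336 called genes in all, 0 to 2 for the other bHLH-PAS genes (0 without replicate 3 of A375 neg or replicate 3 of A375 RIPK4.KO, 2 without replicate 1 of A375 RIPK4.KO) and 1 to 2 for the clock genes. The AHR targets had 3 to 4 called and the HIF targets 8 to 9. The ARNT share was 17.6% and 52.8% by counts, 20.2% and 57.0% per kb of exons, and 22.2% and 60.0% per kb of the principal transcript, a choice added after the data had been seen. A mean of at least 50 counts left 963 called genes.

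The replicate numbers did not pair the libraries (correlations of same-numbered libraries of 0.08, 0.04 and -0.01), and a fit with the replicate block called 1266 genes. Depth limits SIM2 and EPAS1 most, at 0 to 15 and 57 to 96 counts per library.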

Other observations

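The 5 protein-coding genes whose log2 CPM followed ARNT2 most closely over the 6 libraries were TSHZ2, EMP1, BTG2, ADGRF1 and GRAMD1B, with Pearson r from 0.9995 to 0.9999. The libraries form 2 groups, so r mainly reflects the difference between those groups and is given as a description. TSHZ2, a zinc finger transcription factor, had 10, 12 and 11 counts in the controls and 0 in each A375 RIPK4.KO library. GRAMD1B, a cholesterol transporter, had 4429, 4947 and 4810 counts in the controls and 1148, 1170 and 1199 in the knockout. BTG2, an antiproliferative p53 target, had 451, 503 and 474 counts in the controls and 198, 205 and 212 in the knockout. The adhesion receptor ADGRF1 had 2527, 2751 and 2622 counts in the controls and 1014, 1099 and 1111 in the knockout, and the membrane protein EMP1 had 8299, 9120 and 8826 and then 6057, 6370 and 6542. All 5 were lower in every A375 RIPK4.KO library, which follows from choosing them by their r with ARNT2 and is no separate result.

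NFIL3, a repressor that competes at D-box elements of the clock output, passed the adjusted p without reaching 1.5-fold, with 300, 332 and 330 counts in the controls and 193, 223 and 231 in the knockout (log2 fold change -0.44, SE 0.11, adjusted p = 0.029 by edgeR). The promoters of 14 of the 24 HIF targets with an entry held ACGTG and 13 held GCGTG, against 18.68% and 31.91% of all promoters. The list was chosen from known HIF targets and enrichment was not tested.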
